A study of Homo sapiens with 4 samples.

Results

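Glycine and glutamate tRNA genes were examined in A375 human melanoma cells that were resistant or sensitive to encorafenib, an inhibitor of mutant BRAF. Members were all gene-table entries of biotype tRNA whose symbol starts with TRG- (glycine) or TRE- (glutamate). The table held 46 of them, 31 glycine and 15 glutamate genes, among 436 tRNA entries and 46416 entries in all. The 4 groups were resistant A375-R cells given encorafenib at 10 nM for 48 h, untreated resistant cells, sensitive A375-S cells given the same treatment, and untreated sensitive cells. Both lines are labelled BRAF-mutated, so this mutation is shared by all groups. The labels do not say how the resistant line was derived or whether it is 1 clone. Each group has 1 library, so no difference between libraries has a replicate check, and a ratio compares these libraries and not the conditions.

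Transfer RNAs carry amino acids to the ribosome and read the codons of mRNA through their anticodon. RNA polymerase III transcribes their genes from promoters that lie inside the gene, and most tRNAs are encoded by several copies with the same mature sequence. The anticodon GCC reads the glycine codons GGC and GGU, CCC reads GGG and TCC reads GGA, while CTC reads the glutamate codon GAG and TTC reads GAA. Fragments of glycine and glutamate tRNAs, cut in the anticodon loop by ribonucleases such as angiogenin, are commonly found in small-RNA libraries. The SMARTer smRNA-Seq kit used here captures short RNA, and the count tables do not tell whole tRNA from its fragments.

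In a symbol such as TRG-GCC1-2, the letters give the amino acid and the anticodon, the first number the mature sequence (the isodecoder) and the last number the gene copy. The 46 genes fell into 5 anticodon families and 21 isodecoders. Gly-GCC had 14 genes, Gly-CCC 8, Gly-TCC 9, Glu-CTC 8 and Glu-TTC 7. Copies often carried exactly the same counts in all 4 libraries, and such entries were counted once, under the symbol of the first copy. On this basis 38 entries with any count gave 18 distinct count patterns, of which 17 reached 10 counts in at least 1 library. The other 8 entries had 0 counts in every library, 6 of them Gly-CCC genes, with TRG-GCC4-1 and TRG-GCC5-1. TRG-TCC4-1 had 1 count in total.

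Gene-table totals were 20507667 counts in treated resistant, 23029101 in untreated resistant, 25539835 in treated sensitive and 33664470 in untreated sensitive cells. Between 88.7% and 93.8% of these were rRNA. A count of 0 allows up to 3 counts, which is 0.146, 0.130, 0.117 and 0.0891 CPM (counts per 1000000 gene-table counts) in the same libraries. Of 8 melanocyte and melanoma markers, 3 to 6 had a count in each library. SOX10 had 86, 94, 73 and 157 counts in this order and MITF 59, 19, 45 and 31. DCT, a pigment enzyme, had 145, 1, 332 and 0 counts, so it was high with drug in both lines, while MLANA and TYR were at 0 in every library. Summed immune markers had 7 to 38 counts, keratinocyte markers 27 to 40, fibroblast markers 2 to 15 and red cell markers 0 to 1, and PTPRC, KRT5 and HBB had at most 1 count. In bulk samples, fewer cells of a type and less RNA per cell cannot be told apart.

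Summed over all members, resistant cells had more glycine and glutamate tRNA counts than sensitive cells with and without drug. Relative to the sum of other tRNAs, which holds many Asp-GTC counts, resistant cells had fewer. Treated cells had more than untreated cells in both lines. Summed over distinct patterns, the members held 4446 counts (217 CPM) in treated resistant, 1787 (77.6 CPM) in untreated resistant, 793 (31.1 CPM) in treated sensitive and 703 (20.9 CPM) in untreated sensitive cells. The treated resistant library was the highest of the 4 and the untreated sensitive library the lowest in CPM. After TMM scaling (trimmed mean of M values, which sets the bulk of the genes level), the members of treated resistant cells were 4.00-fold (3.71 to 4.33) those of treated sensitive cells. Without drug they were 3.46-fold higher (3.17 to 3.79) in resistant cells. With encorafenib they were 2.57-fold higher (2.44 to 2.72) in resistant cells and 2.23-fold higher (2.01 to 2.47) in sensitive cells than without it. Values in parentheses are 95% Clopper-Pearson intervals. A ratio is called beyond 2-fold where the bound nearest 0 is at least 1 in log2. Intervals cover counting error only, because each group has 1 library. PCR copies of a molecule cannot be recognised without molecular identifiers, so the intervals may be too narrow even for counting error.

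**Figure D1:**
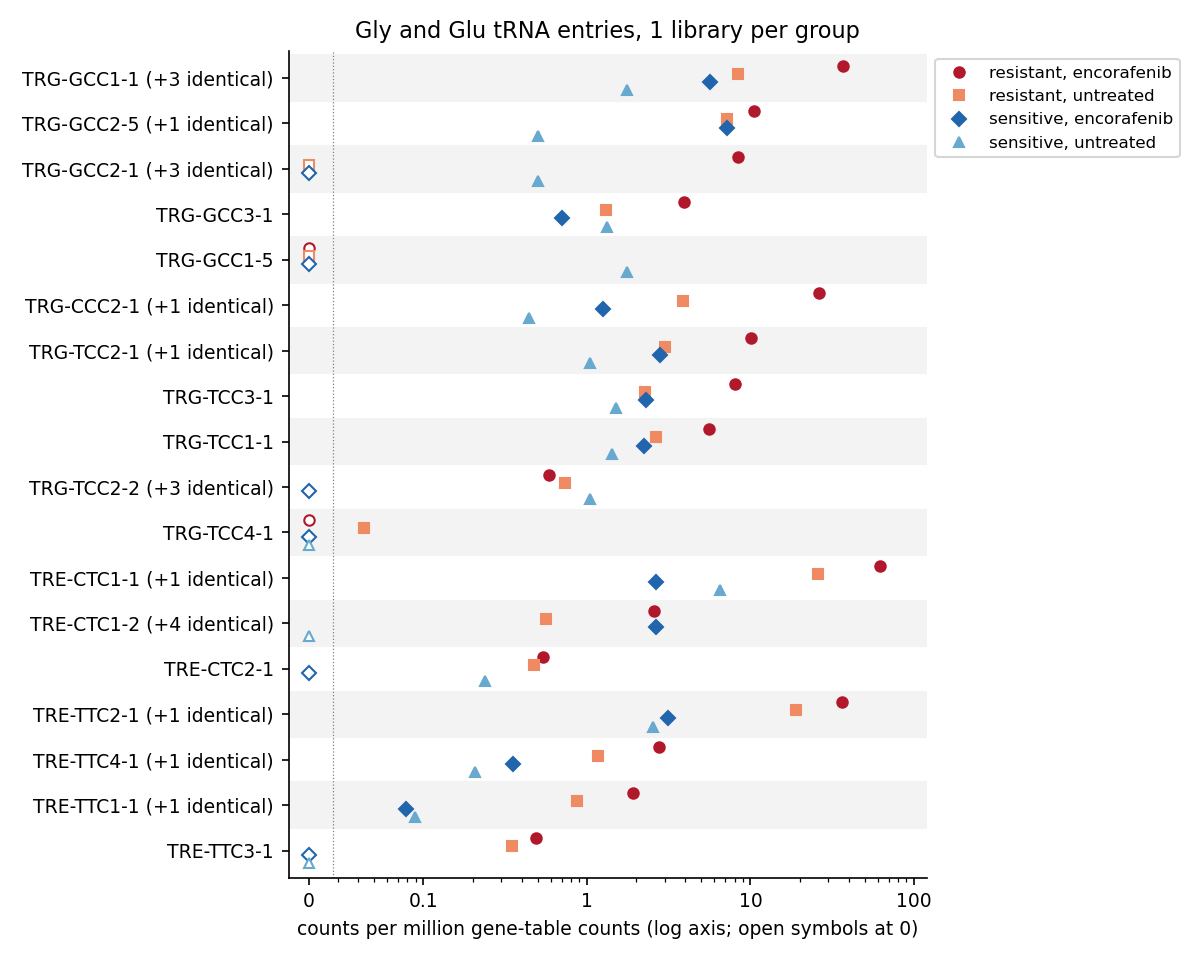
CPM of the gene table (log axis) for each distinct count pattern of Gly and Glu tRNA genes, 1 symbol per library, with open symbols for 0 counts. TRE-CTC1-1 reached the highest level, 61.6 CPM in treated resistant cells, and the treated resistant library was the highest for most patterns.

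Summed over the families, the line difference was smaller than that of the sum of other tRNAs, which includes the abundant Asp-GTC family. It turned round when the total of other tRNAs was the scale, although Gly-CCC in both drug states and Glu-TTC without drug stayed above 0. Other nuclear tRNA genes, summed in the same way, were 6.72-fold higher (6.37 to 7.10) in resistant cells with drug and 5.60-fold higher (5.33 to 5.90) without. Mitochondrial tRNA genes were 7.95-fold higher (7.65 to 8.27) and 5.44-fold higher (5.24 to 5.65). Relative to the total of all other tRNA entries, the members were lower in resistant than in sensitive cells. The log2 ratio was -0.86 (-0.97 to -0.75) with drug and -0.82 (-0.95 to -0.70) without. Here and below, that total sums every entry, identical copies and mitochondrial genes included, while identical member entries are counted once. Ratios near 0 on this scale may depend on this, which was not tested. They took 24.4% (23.8 to 25.0) of nuclear tRNA counts in treated resistant, 18.7% (17.9 to 19.5) in untreated resistant, 35.1% (33.1 to 37.1) in treated sensitive and 27.1% (25.4 to 28.9) in untreated sensitive cells. These shares do not depend on library scaling. Asp-GTC alone held 8191, 6008, 911 and 887 of the 13799, 7776, 1466 and 1891 counts of other nuclear tRNA genes, in the same order. Asp-GTC itself was 6.4-fold higher (6.0 to 6.9) in resistant cells with drug and 9.2-fold higher (8.6 to 9.9) without. Shares and ratios relative to other tRNAs therefore lean on this family, and they were not recomputed without it. Against the remaining nuclear tRNAs, the direction of the line difference without drug is not given here and may be the opposite. Relative to all other tRNA entries the drug difference kept its sign. Its log2 ratio was 0.33 (0.25 to 0.41) in resistant and 0.36 (0.21 to 0.51) in sensitive cells. That total includes Asp-GTC, which under TMM was 1.4-fold higher with drug in resistant and 2.0-fold higher in sensitive cells. Against the remaining nuclear tRNAs, the sign of the drug difference in resistant cells is not given here and may be the opposite. Other short RNA classes differed from each other. TMM-scaled counts in the separate microRNA table had log2 ratios of 3.26 and 2.01 between the lines with and without drug. Between treated and untreated cells they were 1.55 in the resistant and 0.30 in the sensitive line. In the same order, Y RNA had 0.68, -0.32, 1.31 and 0.30, and small nucleolar RNA 0.10, 0.36, 0.52 and 0.78. Ribosomal RNA took the smallest share, 88.7%, in the treated resistant library. The part of short-RNA recovery in the results was not tested.

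Gly-GCC tRNA, which reads GGC and GGU, had 1230 counts in treated resistant, 389 in untreated resistant, 346 in treated sensitive and 197 in untreated sensitive cells. It was higher in resistant than in sensitive cells by a log2 ratio of 1.34 (1.17 to 1.52) with drug and 1.43 (1.177 to 1.68) without, but lower relative to other tRNAs, at -1.52 and -1.19. Treated cells had more than untreated cells, by 1.71 (1.54 to 1.88) in the resistant and 1.79 (1.54 to 2.05) in the sensitive line. With the highest copy of each isodecoder the log2 line ratio was 1.13 with drug and 2.13 without, and the drug ratio 1.49 in resistant and 2.49 in sensitive cells. The untreated sensitive sum holds the 59 counts of TRG-GCC1 and the 17 of TRG-GCC2 in both of their count patterns. The pattern with the largest total was TRG-GCC1-1, shared with copies 2 to 4, with 760, 194, 144 and 59 counts in the same order of libraries. All 4 of its log2 ratios were beyond 2-fold, between 1.91 and 2.25. TRG-GCC2-5, shared with copy 6, had 217, 165, 184 and 17 counts, so only the untreated sensitive library was low. TRG-GCC3-1 had 80, 30, 18 and 45 counts, and none of its 4 ratios was beyond 2-fold.

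Gly-CCC tRNA, which reads GGG, had the widest range of the 5 families. Its counts came from TRG-CCC2-1 and TRG-CCC2-2, which shared 542 counts in treated resistant, 89 in untreated resistant, 32 in treated sensitive and 15 in untreated sensitive cells. The treated resistant library stood far above the other 3, and both resistant libraries were above both sensitive ones. The resistant line was 11.96-fold higher (8.47 to 17.9) than the sensitive line with drug and 7.82-fold higher (4.65 to 15.1) without. Treated cells were 6.27-fold higher (5.03 to 7.98) than untreated cells in the resistant line and 4.08-fold higher (2.22 to 8.37) in the sensitive line. Relative to other tRNAs the line log2 ratios stayed above 0, at 0.73 (0.22 to 1.30) with drug and 0.39 (-0.40 to 1.30) without, and the interval without drug includes 0.

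Gly-TCC tRNA, which reads GGA, had the smallest TMM-scaled line ratios of the 5 families. It had 496 counts in treated resistant, 200 in untreated resistant, 188 in treated sensitive and 169 in untreated sensitive cells. The log2 ratio of resistant over sensitive cells was 0.91 (0.67 to 1.16) with drug and 0.69 (0.39 to 0.99) without, neither beyond 2-fold, and -1.95 and -1.92 relative to other tRNAs. Encorafenib over untreated gave 1.36 (1.12 to 1.60) in resistant and 1.13 (0.83 to 1.44) in sensitive cells. The untreated sensitive sum holds the 35 counts of TRG-TCC2 in both of its count patterns. With the highest copy of each isodecoder the drug ratio in sensitive cells was 1.465 (1.142 to 1.80), beyond 2-fold. The line ratio without drug was then 0.89 (0.57 to 1.23). Its largest pattern, TRG-TCC2-1 with copy 6, had 206, 69, 72 and 35 counts. TRG-TCC3-1 had 164, 52, 59 and 51 counts and TRG-TCC1-1 had 114, 61, 57 and 48. In these single-copy genes the treated resistant library had the most raw counts. After TMM scaling, treated were above untreated sensitive cells, by 2.27-fold (1.54 to 3.39) for TRG-TCC3-1 and 2.33-fold (1.57 to 3.52) for TRG-TCC1-1. In CPM the gap was smaller, at 2.31 against 1.515 for TRG-TCC3-1 and 2.232 against 1.426 for TRG-TCC1-1.

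Glu-CTC tRNA, which reads GAG, had 1327 counts in treated resistant, 619 in untreated resistant, 136 in treated sensitive and 227 in untreated sensitive cells. Resistant cells were 6.95-fold higher (5.84 to 8.38) than sensitive cells with drug and 3.71-fold higher (3.19 to 4.35) without, while log2 ratios relative to other tRNAs were -0.06 (-0.32 to 0.20) and -0.72 (-0.94 to -0.50). With drug the log2 line ratio was 2.80 as counted here, 2.07 with every entry summed and 3.73 with the highest copy of each isodecoder. In resistant cells the log2 ratio of encorafenib over untreated was 1.15 (1.01 to 1.29). In sensitive cells it was 0.24 (-0.08 to 0.55), and its sign depended on the scaling and on how copies were counted, from -0.76 to 1.07. The pattern with the largest total was TRE-CTC1-1, shared with copy 6, with 1263, 595, 68 and 219 in the same order of libraries. It was high in both resistant libraries, and lower in treated than in untreated sensitive cells, with a log2 ratio of -0.70 (-1.12 to -0.31).

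Glu-TTC tRNA reads GAA with a modified wobble uridine, which the Elongator complex, ALKBH8 with TRMT112 and the thiouridylase CTU1 with CTU2 make. It had 851 counts in treated resistant, 490 in untreated resistant, 91 in treated sensitive and 95 in untreated sensitive cells. Resistant cells were 6.65-fold higher (5.38 to 8.39) with drug and 6.99-fold higher (5.63 to 8.85) without, while the log2 ratios relative to other tRNAs were -0.12 (-0.44 to 0.21) and 0.20 (-0.12 to 0.53), with intervals that include 0. Encorafenib over untreated gave log2 ratios of 0.84 (0.68 to 1.01) in resistant and 0.91 (0.49 to 1.35) in sensitive cells, and -0.19 (-0.36 to -0.03) and 0.13 (-0.30 to 0.56) relative to other tRNAs. TRE-TTC2-1, shared with copy 2, had 745, 435, 80 and 85 counts, so the lines lay further apart than the drug states of a line. TRE-TTC4-1 had 57, 27, 9 and 7 counts and TRE-TTC1-1 had 39, 20, 2 and 3. TRE-TTC3-1 had 10 and 8 counts in treated and untreated resistant cells and 0 in both sensitive libraries. All copies of each Glu-TTC isodecoder had the same counts.

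**Figure D2:**
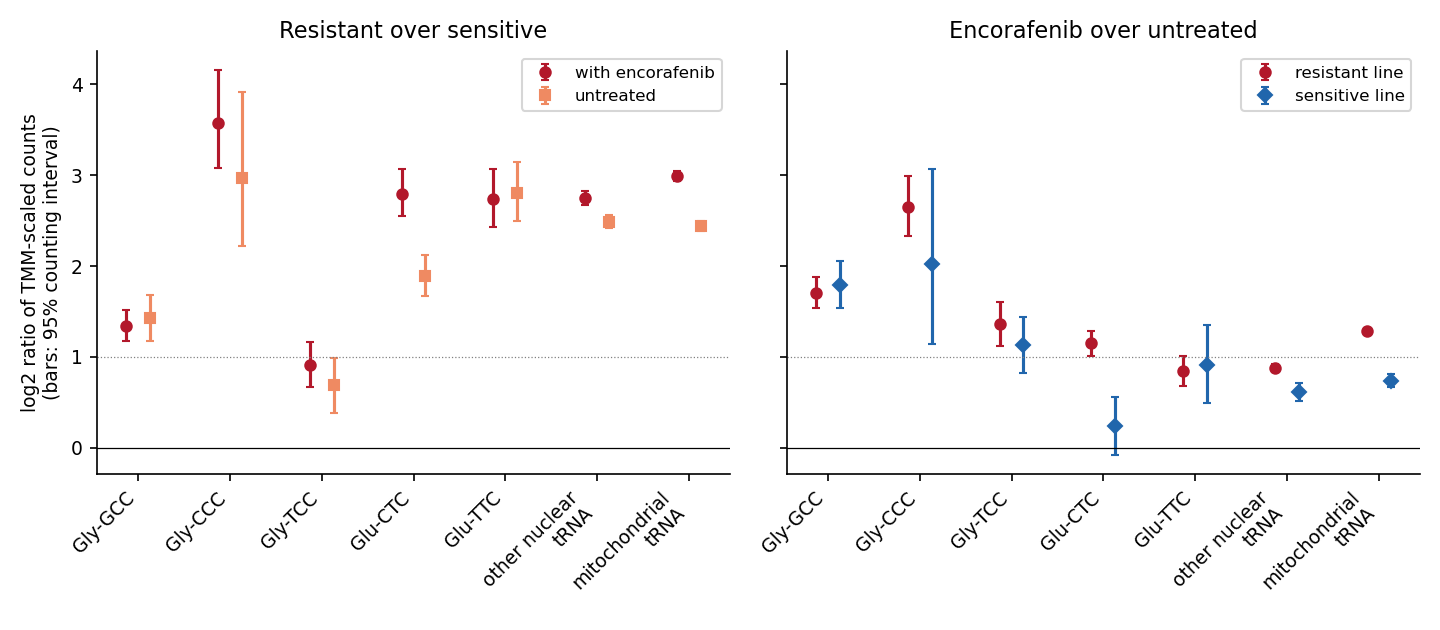
Log2 ratios of TMM-scaled counts with 95% counting intervals for the 5 families and for other tRNAs, resistant over sensitive on the left and encorafenib over untreated on the right. Gly-GCC and Gly-TCC lie below other nuclear tRNA between the lines, and Glu-CTC in sensitive cells is the only family ratio whose interval includes 0.

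**Figure D3:**
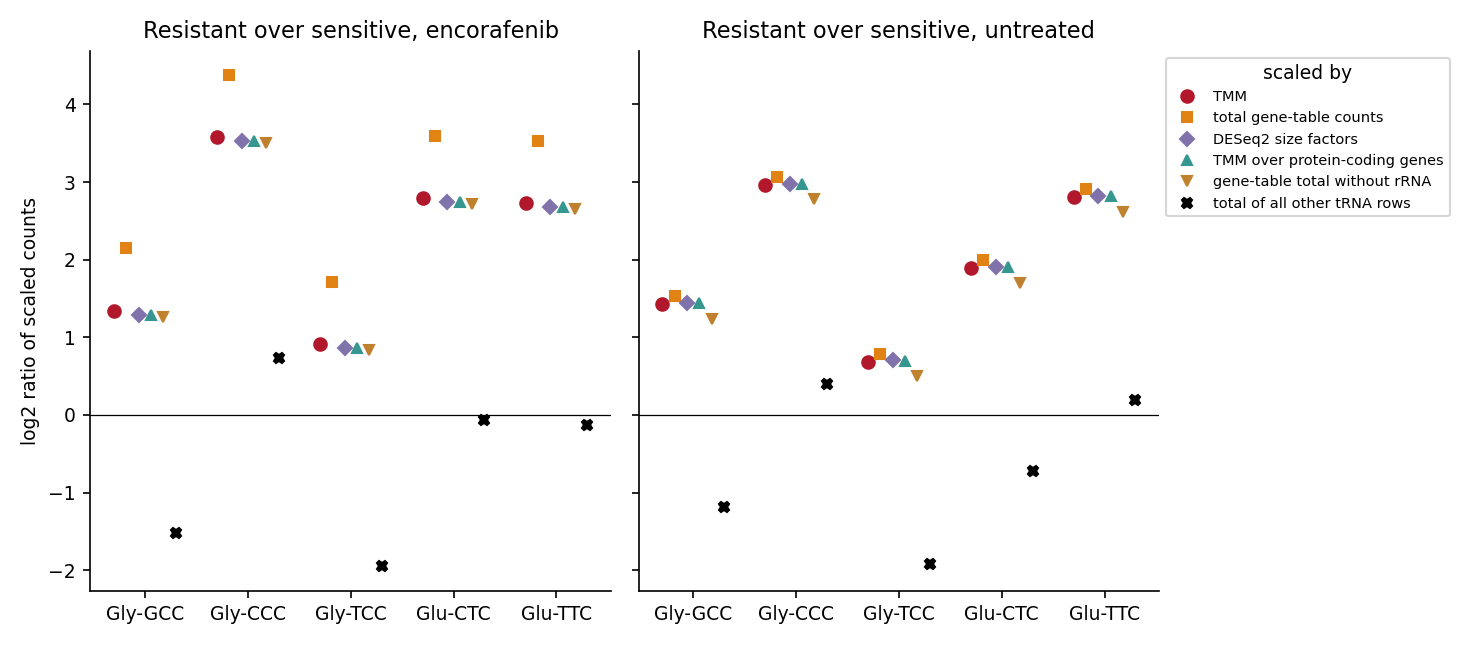
Log2 ratios of resistant over sensitive cells for each family under 6 scalings, with drug on the left and without on the right. All 5 families lie above 0 under every scaling but the total of other tRNA entries, where Gly-GCC, Gly-TCC and Glu-CTC lie below 0 in both plots.

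The balance of glycine and glutamate tRNA differed between the lines and between the drug states. Glycine tRNA took 51.0% (49.5 to 52.5) of the glycine and glutamate counts in treated resistant, 37.9% (35.7 to 40.2) in untreated resistant, 71.4% (68.1 to 74.5) in treated sensitive and 54.2% (50.4 to 57.9) in untreated sensitive cells. The log2 ratio of glycine per glutamate counts was therefore lower in resistant than in sensitive cells, with a difference of -1.26 (-1.50 to -1.02, delta method) with drug and -0.95 (-1.21 to -0.70) without. It was higher in treated than in untreated cells, by 0.77 (0.61 to 0.93) in resistant and 1.08 (0.77 to 1.38) in sensitive cells. This balance needs no library scaling, and it was chosen after the values were seen. Its 4 ratios had the same signs when every entry was summed and when the highest copy of each isodecoder was taken, with values between -1.86 and -0.48 for the lines and between 0.67 and 2.09 for the drug. Gly-CCC took 12.2% of the glycine and glutamate counts in treated resistant cells, against 4.98% in untreated resistant, 4.04% in treated sensitive and 2.13% in untreated sensitive cells.

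**Figure D4:**
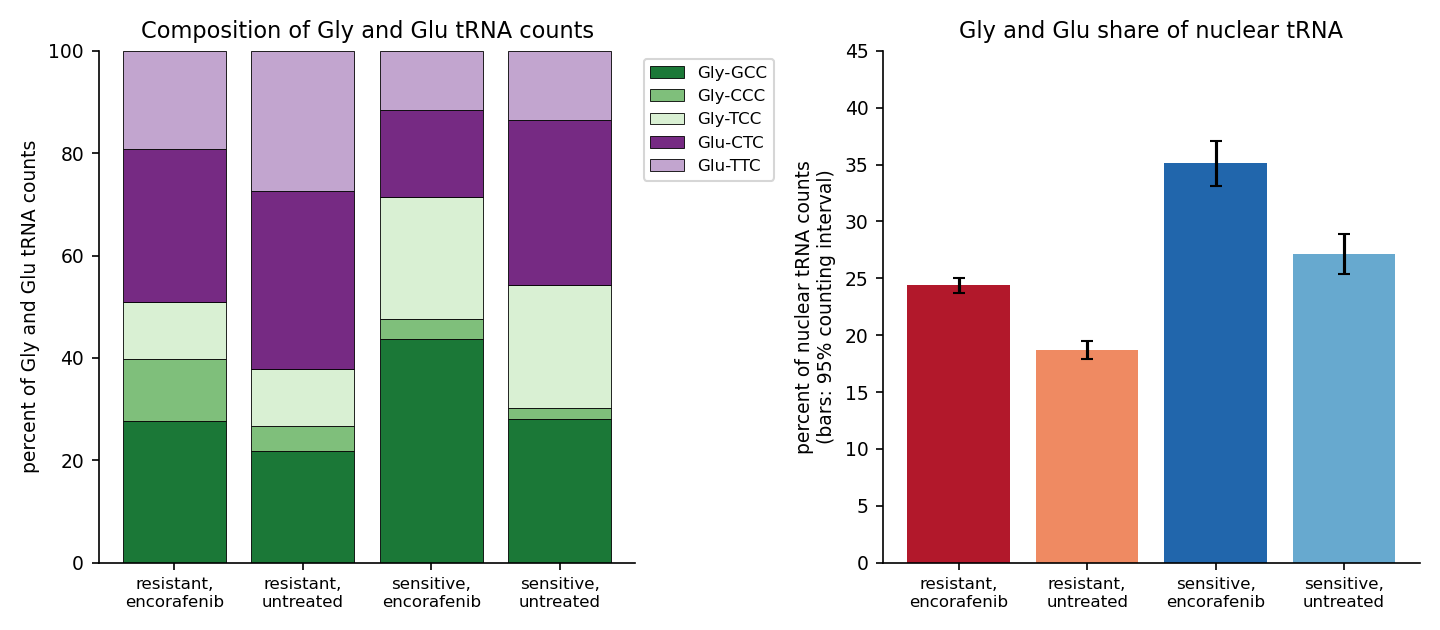
Share of each family in the Gly and Glu tRNA counts of a library (left, percent) and share of Gly and Glu in nuclear tRNA counts (right, percent, with 95% counting intervals). Glycine families, in green, fill 71.4% of the treated sensitive bar and 37.9% of the untreated resistant bar.

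With identical entries counted once, the interval of the difference of drug responses between the lines excluded 0 for Glu-CTC and included it for the other 4 families, and this depended on how copies were counted and libraries scaled. The log2 response of Glu-CTC was higher in resistant than in sensitive cells by 0.91 (0.57 to 1.24). It was 1.88 (1.46 to 2.29) with the highest copy of each isodecoder and 0.12 (-0.09 to 0.33) with every entry summed. For Gly-GCC the difference was -0.08 (-0.38 to 0.22), for Gly-CCC 0.62 (-0.31 to 1.55), for Gly-TCC 0.23 (-0.16 to 0.61) and for Glu-TTC -0.07 (-0.51 to 0.37), none detectable at this depth. With the highest copy of each isodecoder, Gly-GCC differed by -1.0 (-1.34 to -0.66). With every entry summed, Gly-TCC differed by 0.52 (0.22 to 0.83). Scaled by gene-table totals, Gly-CCC differed by 1.31 (0.38 to 2.24), and the intervals of all 5 families excluded 0. These delta-method intervals come from counting error alone, and no degree of freedom is left to test the difference. Other nuclear tRNA differed by 0.26 (0.16 to 0.37). In the treated sensitive library all 7 copies of TRE-CTC1 had 68 counts, so that the main sum holds this value in both count patterns.

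Copies of 1 isodecoder did not always receive the same counts, although their mature sequences are the same. Among 28 pairs of a multicopy isodecoder and a library with at least 10 counts, all copies had 1 value in 16 and took exactly 2 values in 12, and no pair had 3 or more. In 7 pairs a copy stood at 0 beside copies with counts. The splits fell in TRE-CTC1, TRG-GCC1, TRG-GCC2 and TRG-TCC2. TRE-CTC1-2, shared with copies 3, 4, 5 and 7, had 53, 13, 68 and 0 counts in treated resistant, untreated resistant, treated sensitive and untreated sensitive cells, against 1263, 595, 68 and 219 for copies 1 and 6. TRG-GCC1-5 had 59 counts in untreated sensitive cells, equal to copies 1 to 4, and 0 in the other 3 libraries. TRG-GCC2-1, shared with copies 2 to 4, had 173, 0, 0 and 17 counts, and TRG-TCC2-2, shared with copies 3 to 5, had 12, 17, 0 and 35.

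These zeros decide the extreme ratios of single copies. In resistant cells TRG-GCC2-1 was at least 41.2-fold higher with drug and at least 4.16-fold lower without than in sensitive cells, each against a floor of 3 counts per library. TRE-CTC1-2 was at least 44.7-fold higher in treated than in untreated sensitive cells, while TRG-GCC1-5 was at least 9.96-fold lower and TRG-TCC2-2 at least 5.91-fold lower. In each of these the other copies of the same mature tRNA had counts in the library at 0. Ratios of single copies in these 4 isodecoders are therefore uncertain, and the sources used here do not say how reads that match several copies were counted. Among multicopy isodecoders of other nuclear tRNAs, 15 of 44 such pairs had 1 value, 29 had 2 values and 0 had more.

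**Figure D5:**
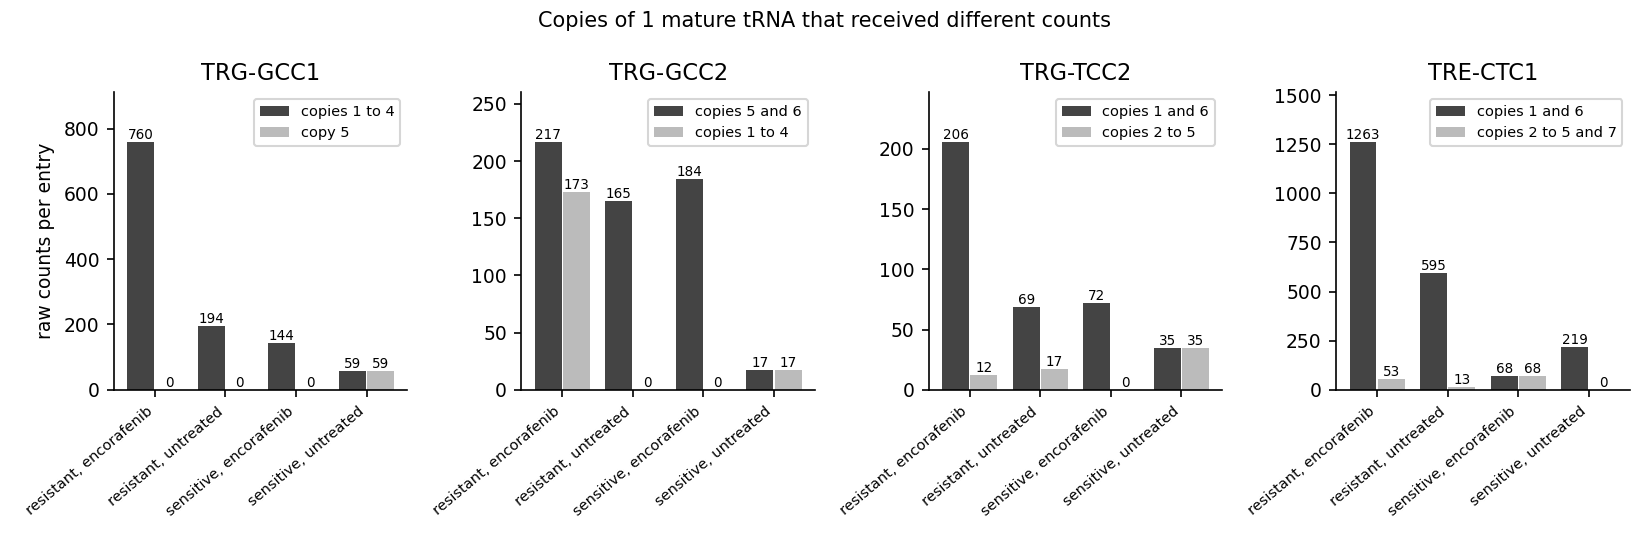
Raw counts per entry in the 4 libraries for copies of the 4 isodecoders that split. Within a library the copies carry at most 2 values, and in untreated sensitive cells TRG-GCC1 copies 1 to 4 and copy 5 both have 59 counts.

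Genome order matched part of this grouping. In the RefSeq gene table for GRCh38.p14, used only for names and neighbours because the counts were made on hg19, 45 of the 46 genes were found. Of these, 12 lay in 4 tandem units of 5 tRNA genes each, for Leu-CAG, Gly-GCC, Glu-CTC, Gly-TCC and Asp-GTC. The units hold TRG-GCC1-1 to TRG-GCC1-4, TRE-CTC1-2 to TRE-CTC1-5 and TRG-TCC2-2 to TRG-TCC2-5, each set with identical counts in all 4 libraries. The copies with other counts, TRG-GCC1-5, TRE-CTC1-1, TRE-CTC1-6, TRG-TCC2-1 and TRG-TCC2-6, lay outside them. TRE-CTC1-7 shared the counts of the units but lay outside too.

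Counted pattern by pattern, a larger share of members than of all entries was beyond 2-fold higher in each pair of libraries. Between resistant and sensitive cells with drug, 7 of 17 patterns were higher and 0 lower, where 2.75% of the 8865 entries tested were higher and 1.23% lower. Without drug 9 were higher and 2 lower, against 2.88% and 1.15% of all entries. Encorafenib against untreated gave 6 higher and 0 lower in resistant cells, against 3.4% and 1.59%, and 5 higher and 3 lower in sensitive cells, against 3.55% and 2.5%. Median log2 ratios of the 17 patterns were 2.13, 1.89, 1.11 and 0.89 in these 4 pairs, beside 0.08, -0.02, 0.05 and -0.02 over all entries tested. The lower patterns were copies at 0 of isodecoders that split, TRG-GCC1-5 and TRG-GCC2-1 between the lines without drug and these with TRG-TCC2-2 in treated sensitive cells. With the highest copy of each isodecoder in place of single patterns, 0 were lower in either pair. Some higher patterns also rested on a copy at 0 of an isodecoder that split. These were TRG-GCC2-1 between the lines with drug and in treated resistant cells, and TRE-CTC1-2 between the lines without drug and in treated sensitive cells.

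For other nuclear tRNA genes the same counts are given without a test of the difference. Of their 64 patterns, 40 were beyond 2-fold higher and 1 lower between the lines with drug, and 24 higher and 2 lower without. Encorafenib against untreated gave 34 higher and 2 lower in resistant cells, and 2 higher and 0 lower in sensitive cells. Of 35 nuclear anticodon families, 27 were beyond 2-fold higher between the lines with drug and 20 without. Both counts include the member families except Gly-TCC. By anticodon family, 17 of 35 nuclear families were beyond 2-fold higher in treated than in untreated resistant cells, among them Gly-GCC, Gly-CCC, Gly-TCC and Glu-CTC. In sensitive cells 3 of the 35 were, among them Gly-GCC and Gly-CCC.

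The test made across all 4 libraries was a model with line and drug as additive terms. Entries were tested with the quasi-likelihood test of edgeR, adjusted after Benjamini and Hochberg over 7092 entries, and 15 member patterns had the 10 counts in at least 2 libraries that it needs. Its single residual degree of freedom is the difference of drug responses between the lines, so its p-values do not measure spread between replicates. For line, 6 of 15 patterns rose in resistant cells and 0 fell, against 2.0% and 0.437% of all entries. TRG-CCC2-1 had a fitted log2 difference of 3.30 (adjusted p = 0.00101, edgeR), TRE-TTC2-1 of 2.73 (adjusted p = 0.00154) and TRE-CTC1-1 of 2.75 (adjusted p = 0.0116). TRE-TTC1-1, TRG-GCC1-1 and TRE-TTC4-1 also rose, by 3.38, 2.00 and 2.23. Each of the 6 was higher in resistant cells in both drug states. TRE-CTC1-1 and TRG-GCC1-1 belong to isodecoders whose copies split, and the other TRE-CTC1 pattern, TRE-CTC1-2, had a line difference of 0.04.

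For drug, 5 of 15 patterns rose with encorafenib and 0 fell, against 3.4% and 2.34% of all entries. TRG-CCC2-1 had a fitted log2 difference of 2.41 (adjusted p = 0.00435, edgeR), TRG-GCC1-1 of 2.12 (adjusted p = 0.00488) and TRG-TCC2-1 of 1.79 (adjusted p = 0.00855). TRG-TCC3-1 rose by 1.44 and TRE-CTC1-2, a pattern with a 0, by 3.69. Each was higher with drug in both lines. TRG-GCC1-1, TRG-TCC2-1 and TRE-CTC1-2 belong to isodecoders whose copies split, so their calls share the uncertainty of single copies. The other TRG-TCC2 pattern, TRG-TCC2-2, had a drug difference of -1.69 and was not called. TRE-CTC1-1 had a drug difference of 0.24 (adjusted p = 0.829), with ratios of opposite sign in the 2 lines. No called pattern of the line effect came from Gly-TCC, and the drug calls held no Glu-TTC pattern, but the difference between families was not tested. The line calls depended on the drug term, since with line as the only factor 0 were called and 5 had an unadjusted p under 0.05. Other scalings and DESeq2's Wald test called 4 to 7 patterns for line and 2 to 9 for drug. Over all 7092 entries the same settings called 112 to 265 higher for line and 82 to 425 higher for drug. The main fit called 142 and 241 of them higher.

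Genes that make, charge, modify or cut tRNA were counted in the same way. The list held 63 genes, of which 46 reached 10 counts in a library. Between the lines with drug, and in resistant cells under drug, 0 of 46 were beyond 2-fold either way. Of all entries, 2.75% were higher and 1.23% lower between the lines with drug, and 3.4% and 1.59% in resistant cells under drug. Without drug 1 was higher and 2 lower in resistant cells, and in sensitive cells 1 was higher and 1 lower with encorafenib, against 2.88% and 1.15%, and 3.55% and 2.5%, of all entries. So few genes cannot be told from these background shares. Median log2 ratios were 0.29 and -0.21 between the lines with and without drug, and -0.10 and -0.46 for encorafenib in resistant and sensitive cells. In the additive fit 0 of 36 tested genes were called by edgeR for either effect, against 2.0% and 0.437% of all entries for line and 3.4% and 2.34% for drug, with 3 at an unadjusted p under 0.05 for line and 4 for drug, and DESeq2 called 0.

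RPP25, a protein subunit of RNase P, which trims the 5′ end of tRNA precursors, had 21 counts in treated resistant, 60 in untreated resistant, 10 in treated sensitive and 13 in untreated sensitive cells, so the untreated resistant library stood out. RPP14, another RNase P subunit, had 4, 0, 0 and 19 counts. EPRS1, which charges glutamate and proline tRNAs, had 103, 116, 74 and 211 counts. GARS1, which charges glycine tRNAs, had 31, 44, 15 and 47, and none of the ratios of these 2 synthetases was beyond 2-fold. MAF1, a repressor of RNA polymerase III, had 20, 19, 14 and 34 counts and log2 ratios between -0.39 and 0.12. At these depths changes in single machinery genes were often not detectable.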

How the data were processed

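For each of the 4 libraries the authors deposited raw counts of reads, not normalized, in 1 table for genes and 1 for mature microRNAs, per the file headers. RNA was extracted with an RNeasy kit and made into libraries with the SMARTer smRNA-Seq kit, per the labels' protocols. Per the submitters' processing notes, reads were placed on hg19. The sources used here give no aligner, counting program, use of strand or handling of reads that match several genes.

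Entries with identical counts in all 4 libraries were counted once, and family values are sums over the distinct patterns. Libraries were scaled by TMM (edgeR 4.0.16, R 4.3.3) over entries with at least 10 counts in a library. For 4 pairs of libraries the log2 ratio was computed with a prior count of 0.5 and a 95% interval by the exact conditional Clopper-Pearson method (scipy 1.17.1), with no p-value. A difference of drug responses has a delta-method interval. The additive fit used edgeR's quasi-likelihood test on counts, with TMM factors from the 7092 entries fitted and 1 residual degree of freedom. DESeq2 1.42.0 was an alternative. The groups come from the labels, which name no replicates. The intervals and the fit were tested on simulated counts.

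Other scalings, sums over every entry or over the highest copy, other count filters and a prior count of 2 were alternatives. Named patterns were up to 4 per family with the largest counts, and the 3 highest and 3 lowest ratios per pair with at least 50 counts. Of the tRNA machinery, up to 3 genes per pair and direction with the largest bound were eligible, and EPRS1, GARS1 and MAF1 were chosen after their values were seen. Some genes that this rule names are not reported here. The members and lists were chosen with earlier results of these data known. Coordinates and tRNA sequences are not used here.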

Additional observations from a re-analysis of the deposited data

Results flagged for a closer look

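For 2 flagged count patterns the encorafenib response went one way in the resistant line and the other way in the sensitive line. TRE-CTC1-1 had a log2 ratio of treated over untreated of 1.13 in resistant and -0.70 in sensitive cells, a difference of 1.84, and the 2 counting intervals do not overlap. TRG-GCC2-1 had 5.90 in resistant and -1.52 in sensitive cells, a difference of 7.42, with libraries at 0 placed at 3 counts. Neither difference was tested, since each group has 1 library. Both flagged patterns belong to isodecoders whose copies received different counts. TRG-GCC3-1, a single-copy gene that was not flagged, had 1.45 (0.84 to 2.12) in resistant and -0.34 (-1.22 to 0.48) in sensitive cells. Its difference was 1.78 (0.80 to 2.77), but the interval in sensitive cells includes 0.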

How the results depend on the processing

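No paired analysis was possible because each group has 1 library and the labels give no replicate numbers. Of 739 recomputed values, 588 stayed as they were within counting error or within 1.5 times, 143 moved and 8 changed sign, counting only ratios beyond 2-fold, glycine per glutamate ratios and differences of responses whose interval excludes 0. Scaling by the total of all other tRNA entries moved the median of all entries by -2.79 and -2.56 between the lines with and without drug, and by -1.01 and -0.77 for encorafenib in resistant and sensitive cells. On that scale the members' line ratios were -0.86 and -0.82, Gly-GCC -1.52 and -1.19, Glu-CTC -0.062 and -0.72, Glu-TTC with drug -0.12, and Gly-TCC, not beyond 2-fold under TMM, -1.95 and -1.92. The members' drug ratios were 0.33 and 0.36 and their difference of responses -0.037. Families beyond 2-fold higher were then 0, 0, 1 and 0 in the 4 pairs, and 2 and 1 were lower between the lines, against 4, 4, 4 and 2 higher and 0 lower under TMM.

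Scaling by gene-table totals moved the median entry by 0.77 between the lines with drug and by 0.11 and -0.56 for encorafenib in resistant and sensitive cells. The members' ratios were then 2.80 between the lines with drug, and 1.48 and 0.57 for the drug. Members beyond 2-fold higher were 13 between the lines with drug and 3 in sensitive cells under drug, 0 families were higher in sensitive cells under drug, and machinery counts were 2 higher between the lines with drug, and 0 higher and 5 lower in sensitive cells. The share of all entries beyond 2-fold under this scaling is not given here. Differences of drug responses were 0.62 for Gly-GCC, 0.92 for Gly-TCC, 1.61 for Glu-CTC, 0.63 for Glu-TTC and 0.91 for all members. Without rRNA in the total, the median entry moved by -0.18 between the untreated lines and by -0.45 and -0.56 for the drug. The members' ratios were 1.61 between the untreated lines and 0.90 and 0.58 for the drug, with 2 and 0 families higher under drug.

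With every entry summed, the members' drug ratios were 1.497 and 1.44, their shares of all tRNA counts 11.9%, 8.99%, 20.3% and 14.0% against 8.90%, 7.77%, 15.5% and 11.8%, and the glycine per glutamate ratio -0.53 between the lines with drug and 0.67 in sensitive cells. The Glu-CTC difference of responses was 0.12. Members beyond 2-fold higher were 18, 22, 18 and 15, with 5 lower between the untreated lines and 9 lower in sensitive cells. With the highest copy of each isodecoder, 0 members were lower in these pairs, the untreated line ratio was 2.02, and the glycine per glutamate ratio was -1.86 and -0.48 between the lines and 2.09 in sensitive cells. Differences of responses were -1.0 for Gly-GCC, 1.88 for Glu-CTC and 0.036 for all members. With the highest entry of a family they were -0.38 for Gly-TCC and 1.84 for Glu-CTC.

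In the additive fit, members called higher for drug numbered 3 with DESeq2's Wald test, 2 with total counts, 8 with TMM over protein-coding genes and 9 with TMM factors of the pairwise ratios, against 5. Over all 7092 entries these calls numbered 122, 82, 395 and 425, against 241. Without a count filter 10 members were called higher and 1 lower for line, and 2 lower for drug. Of all 18563 entries then tested, 284 were higher and 87 lower for line, and 349 lower for drug. With line as the only factor 0 were called. The highest-copy sums, the pairwise TMM factors in the fit and the glycine per glutamate ratio were chosen after seeing the data. The cause of these shifts was not tested. Few counts limit some values, such as Gly-CCC in sensitive cells, with 32 and 15.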

Other observations

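The mitochondrial genome encodes its own glycine and glutamate tRNAs, TRNG and TRNE, which are transcribed with the other mitochondrial genes. TRNE had 9326 counts in treated resistant, 3580 in untreated resistant, 353 in treated sensitive and 252 in untreated sensitive cells. Its log2 ratio of resistant over sensitive cells was 4.24 (4.09 to 4.40) with drug and 4.27 (4.09 to 4.46) without, above the 2.99 and 2.44 of all mitochondrial tRNA genes together. Encorafenib over untreated gave 1.43 (1.38 to 1.49) in resistant and 1.47 (1.23 to 1.71) in sensitive cells. TRNG had 505, 710, 335 and 204 counts in the same order of libraries. Its line ratio was 0.11 (-0.10 to 0.31) with drug and 2.24 (2.02 to 2.48) without, and its drug ratio was -0.44 (-0.61 to -0.28) in resistant and 1.69 (1.44 to 1.96) in sensitive cells. These values are under TMM scaling, the comparisons share libraries, and none of these differences was tested.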
